A study of Mus musculus with 9 samples.

Results

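The genes of iron storage and uptake described here are 10 named genes: Fth1, Ftl1 and Ncoa4 of iron storage, Tfrc, Steap3 and Slc11a2 of uptake, Slc40a1 of export, Slc25a37 of mitochondrial import, and the regulators Aco1 and Ireb2. They were chosen by name, with earlier results of these data known. All 10 were among the 53679 gene IDs of the table, and 9 of them were among the 15348 genes with enough counts to be tested; Slc40a1 was not. The CD8+ T cells came from 3 mice of strain C57BL/6, numbered 715, 725 and 728, and were activated for 3 days before RNA sequencing. Each mouse gave 1 library of each of 3 groups, 9 libraries in all. They were Tc22 cells with no agent, Tc0 cells with CoA (coenzyme A, made in cells from pantothenate), and Tc0 cells with no agent. Tc22 cells are CD8+ T cells named for interleukin-22, and Tc0 cells are activated without that polarization. The sources used here do not give the age of the mice, the dose of CoA or how Tc22 cells were cultured.

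Iron enters an activated T cell mainly bound to transferrin, which the transferrin receptor (Tfrc) carries into endosomes. There STEAP3 reduces the iron and DMT1 (Slc11a2) moves it to the cytosol. Iron not used is stored in shells of ferritin heavy and light chains (Fth1, Ftl1), and NCOA4 carries ferritin to the lysosome to release it. Iron regulatory proteins 1 and 2 (Aco1, Ireb2) bind hairpins called iron-responsive elements when iron is scarce, which blocks translation of ferritin and stabilizes Tfrc mRNA. Control of ferritin translation leaves no direct trace in mRNA counts, and no protein was measured.

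The hairpins are shown because they divide the genes into those with an element before the coding sequence and those with one after it. Untranslated regions of GENCODE M21 (GRCm38) were searched on the sense strand for a C, 5 bases, CAGTG followed by A, C or T, and 5 bases that pair with the first 5 in at least 4 positions, G-U pairs included. Capitals mark the loop of 6 bases, and letters are DNA letters of the mRNA sense.
Fth1, 5′ UTR, chr19:9982732-9982760, plus strand: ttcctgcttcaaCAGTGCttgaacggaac
Ftl1, 5′ UTR, chr7:45459779-45459807, minus strand: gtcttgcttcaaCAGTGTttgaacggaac
Slc40a1, 5′ UTR, chr1:45925465-45925493, minus strand: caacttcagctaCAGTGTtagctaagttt
Tfrc, 3′ UTR, chr16:32631219-32631247, plus strand: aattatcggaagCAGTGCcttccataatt
Tfrc, 3′ UTR, chr16:32631598-32631626, plus strand: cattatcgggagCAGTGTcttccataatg
Tfrc, 3′ UTR, chr16:32631663-32631691, plus strand: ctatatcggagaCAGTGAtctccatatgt
Tfrc, 3′ UTR, chr16:32631710-32631738, plus strand: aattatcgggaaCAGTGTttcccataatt
Slc11a2, 3′ UTR, chr15:100395153-100395181, minus strand: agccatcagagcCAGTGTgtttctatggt
The pattern was found in 5 of the 10 genes, against 804 of 21901 protein-coding genes (3.67%). All 5 stem pairs formed in every hairpin shown but that of Slc11a2, which formed 4. The pattern is that of the known element, and the 10 genes were chosen as iron genes, so their share is no test. A match describes these letters only.

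Total counts ran from 21841034 to 36254631 a library, and mitochondrially encoded RNA took 2.003% to 3.997% of counts. Summed markers of CD8 T cells stood at 2770 to 3420 CPM (counts scaled to library size, corrected by TMM) in Tc22 cells, 2420 to 2970 in Tc0 cells with CoA and 2680 to 3590 in Tc0 cells. The Tc0 library of mouse 728 stood apart. Without it, 2669 genes passed the test between Tc22 and Tc0 cells, against 565 with it, so results that rest on it are given both ways. Bulk RNA cannot tell fewer cells of a type from less RNA per cell.

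Per kilobase of exon, Ftl1 had the highest group mean of the 10 mRNAs in Tc22 and Tc0 cells, and Tfrc in Tc0 cells with CoA. In the CoA library of mouse 728, Ftl1 (301.3 CPM per kilobase) stood above Tfrc (225.6). Ftl1 averaged 419.5 ± 70.2 CPM per kilobase in Tc22 cells, 198 ± 89.6 in Tc0 cells with CoA and 290.1 ± 191 in Tc0 cells (SD, n = 3 each). Tfrc averaged 110.4 ± 17.9, 269.9 ± 58.8 and 134 ± 39.5 CPM per kilobase in the same order of groups. Fth1 averaged 106.2 ± 5.28, 44.73 ± 4.03 and 62.1 ± 2.82 CPM per kilobase. The means of Fth1 and Tfrc in Tc22 cells lay within 1 SD, and per kilobase of the principal transcript Fth1 stood above Tfrc there (246.6 against 139.6). Ncoa4 followed at group means of 19.54 to 27.69 CPM per kilobase and Aco1 at 10.88 to 14.69. Slc25a37, Ireb2 and Slc11a2 had group means between 4.836 and 7.136, all within an SD of each other in Tc0 cells only. Per kilobase of the principal transcript, Slc11a2 had the highest mean of these genes in each group. Steap3 was at most 0.1297 CPM per kilobase of exon.

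Fth1, the heavy chain that oxidizes iron for storage, was highest in Tc22 cells and lowest in Tc0 cells with CoA. The gene lies at chr19:9980598-9985098 on the plus strand. It had 361, 355 and 389 CPM in Tc22 cells (mice 715, 725 and 728), 159, 140 and 167 in Tc0 cells with CoA, and 210, 227 and 209 in Tc0 cells. No 2 groups overlapped. Fth1 was higher in Tc22 than in Tc0 cells by 0.77 ± 0.11 on the log2 scale (SE; edgeR quasi-likelihood test, adjusted p = 0.00433). It was lower in Tc0 cells with CoA than in Tc0 cells, with a log2 difference of -0.48 ± 0.11 (adjusted p = 0.0118, edgeR). This second call was lost without the CoA library of mouse 725 (adjusted p = 0.0784) or the Tc0 library of mouse 725 (adjusted p = 0.0828). Between Tc22 cells and Tc0 cells with CoA the difference was 1.25 ± 0.11, a fold of 2.38 (adjusted p = 0.000203, edgeR).

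**Figure D1:**
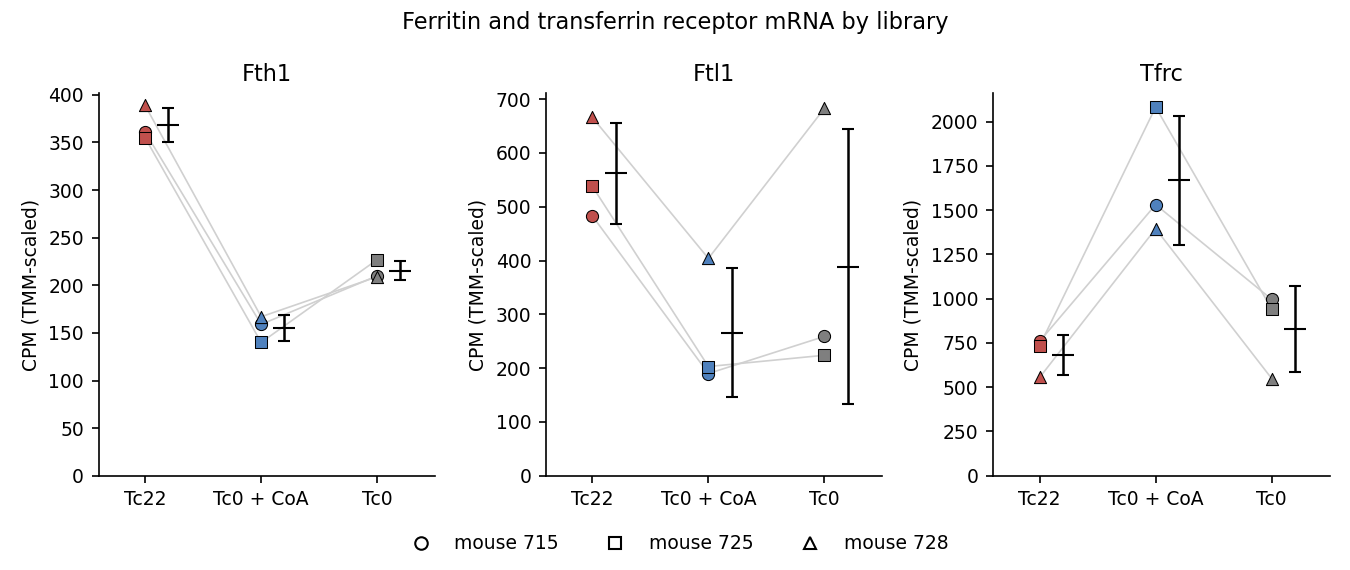
Levels of Fth1, Ftl1 and Tfrc in CPM (y axes) in each library of Tc22 cells, Tc0 cells with CoA and Tc0 cells; points are mice, grey lines link libraries of 1 mouse, and bars are the mean ± SD. Fth1 separates all 3 groups, Tfrc is at 1395 CPM or more in every Tc0 library with CoA, and Ftl1 in the Tc0 library of mouse 728 stands at 683 CPM.

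Ftl1, the light chain that helps the iron core form, went with the heavy chain between Tc22 cells and Tc0 cells with CoA, and did not pass the test against Tc0 cells. The gene lies at chr7:45457944-45459884 on the minus strand. It had 483, 538 and 666 CPM in Tc22 cells, 190, 203 and 404 in Tc0 cells with CoA, and 259, 224 and 683 in Tc0 cells. The Tc0 library of mouse 728 exceeded all Tc22 libraries, so those groups overlapped. The log2 difference between Tc22 and Tc0 cells was 0.71 ± 0.20 (adjusted p = 0.0903, edgeR). Leaving out the mouse 728 library of Tc0 cells (0.98, adjusted p = 0.0165) or of Tc22 cells (1.001, adjusted p = 0.0139) brought it past the threshold. With CoA the difference from Tc0 cells was -0.47 ± 0.20 (adjusted p = 0.11), and it passed when the Tc22 library from mouse 728 was left out (adjusted p = 0.0375). With the mouse 728 library of Tc0 cells left out instead, it shrank to -0.19 (adjusted p = 0.45). Tc22 cells exceeded Tc0 cells with CoA by 1.19 ± 0.20, a fold of 2.28 (adjusted p = 0.00273). That call was lost when the fit had no term for mouse (adjusted p = 0.119).

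Reads of the ferritin light chain may be shared with a near-identical copy, Ftl1-ps1, whose counts were 3.48% to 5.63% of those of Ftl1. Its log2 differences were 0.57 between Tc22 and Tc0 cells, -0.62 between Tc0 cells with CoA and Tc0 cells, and 1.19 between Tc22 cells and Tc0 cells with CoA. Both comparisons with CoA-treated cells passed the test (adjusted p = 0.0279 and 0.00145, edgeR). A gene on the other strand, Gm10252, overlaps Ftl1 and had at most 419 counts in a library.

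Ncoa4, the cargo receptor that takes ferritin to the lysosome, was highest in Tc0 cells and passed the test only between Tc0 cells with CoA and Tc0 cells. It lies at chr14:32159865-32179855 on the plus strand. It had 193, 217 and 212 CPM in Tc22 cells, 194, 171 and 184 in Tc0 cells with CoA, and 256, 292 and 230 in Tc0 cells. Every Tc0 library lay above every library of the other groups. The log2 difference of Tc0 cells with CoA from Tc0 cells was -0.50 ± 0.12 (adjusted p = 0.0144, edgeR). This call was lost without the CoA library of mouse 725 (adjusted p = 0.0924), the CoA library of mouse 728 (0.057) or the Tc0 library of mouse 725 (0.0933). Between Tc22 and Tc0 cells it was -0.32 ± 0.12 (adjusted p = 0.169), and it passed when the mouse 728 library of Tc0 cells was left out (-0.41, adjusted p = 0.0402). Tc22 cells and Tc0 cells with CoA differed by 0.18 ± 0.12 (adjusted p = 0.264, edgeR).

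Tfrc, the transferrin receptor, was higher with CoA than in either other group. It lies at chr16:32608920-32632794 on the plus strand. It had 759, 734 and 555 CPM in Tc22 cells, 1531, 2082 and 1395 in Tc0 cells with CoA, and 996, 941 and 549 in Tc0 cells. The CoA libraries lay above all others, while Tc22 and Tc0 libraries overlapped. The log2 difference of Tc0 cells with CoA from Tc0 cells was 1.04 ± 0.14, a fold of 2.05 (adjusted p = 0.00263, edgeR), higher in 3 of 3 mice. Tc22 cells were lower than Tc0 cells with CoA by a log2 difference of -1.29 ± 0.15 (adjusted p = 0.000547). Between Tc22 and Tc0 cells it was -0.25 ± 0.14 (adjusted p = 0.334), and -0.39 (adjusted p = 0.0732) with the mouse 728 library of Tc0 cells left out.

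The other uptake genes did not pass the test in any comparison. Slc11a2, the endosomal iron transporter, had 32.6, 32.1 and 35.5 CPM in Tc22 cells, 33.0, 27.1 and 33.0 in Tc0 cells with CoA, and 31.7, 35.4 and 46.3 in Tc0 cells. These groups overlapped. Steap3, the endosomal reductase, was near the limit of detection, with 5, 24 and 7 counts in Tc22 cells, 24, 13 and 19 in Tc0 cells with CoA, and 11, 12 and 45 in Tc0 cells. Its difference between Tc22 cells and Tc0 cells with CoA, -1.03 ± 0.61 on the log2 scale (adjusted p = 0.226, edgeR), passed without the Tc22 library of mouse 725 (-2.12, adjusted p = 0.0421).

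Slc25a37, mitoferrin 1, which brings iron into mitochondria, had 48.6, 33.7 and 36 CPM in Tc22 cells, 43.8, 38.4 and 37.5 in Tc0 cells with CoA, and 52.3, 38.6 and 38.0 in Tc0 cells. In each group the library of mouse 715 was the highest, and the groups overlapped. Slc40a1, ferroportin, which exports iron, had 1, 5 and 2 counts in Tc22 cells, 0, 4 and 0 in Tc0 cells with CoA, and 2, 1 and 1 in Tc0 cells. A count of 0, as in the CoA libraries of mice 715 and 728, allows up to 3 counts, or 0.114 and 0.133 CPM (counting error only). The highest library stood at 0.148 CPM. Differences in ferroportin within so low a range were not detectable at this depth.

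Aco1, which is iron regulatory protein 1 without its iron-sulphur cluster and aconitase with it, was higher with CoA. It lies at chr4:40143081-40198338 on the plus strand. It had 53.7, 50.8 and 55.9 CPM in Tc22 cells, 61.3, 67.4 and 69.4 in Tc0 cells with CoA, and 49.5, 46.0 and 51.3 in Tc0 cells. The CoA libraries lay above all others. The log2 difference of Tc0 cells with CoA from Tc0 cells was 0.43 ± 0.10 (adjusted p = 0.0138, edgeR). It was lost without the CoA library of mouse 725 (adjusted p = 0.0924), the CoA library of mouse 728 (0.0772) or the Tc0 library of mouse 725 (0.0849). Tc22 cells were lower than Tc0 cells with CoA, with a log2 difference of -0.30 ± 0.10 (adjusted p = 0.041), a call lost in 10 of 15 alternatives, over which adjusted p ran from 0.0244 to 0.21. Those 10 were the fits without each Tc22 library, without the CoA libraries of mice 725 and 728, without the Tc0 libraries of mice 715 and 725, without a mouse term (adjusted p = 0.0959), without the filter on low counts, and with DESeq2.

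Ireb2, iron regulatory protein 2, which iron marks for degradation as a protein, had 49.7, 45.4 and 42.5 CPM in Tc22 cells, 51.5, 62.8 and 44.9 in Tc0 cells with CoA, and 62.9, 74.5 and 50.9 in Tc0 cells. Tc22 and Tc0 libraries did not overlap. The log2 difference between them was -0.43 ± 0.12 (adjusted p = 0.0827, edgeR), and it passed when the mouse 728 library of Tc0 cells was left out (-0.49, adjusted p = 0.0352). Neither other comparison passed.

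**Figure D2:**
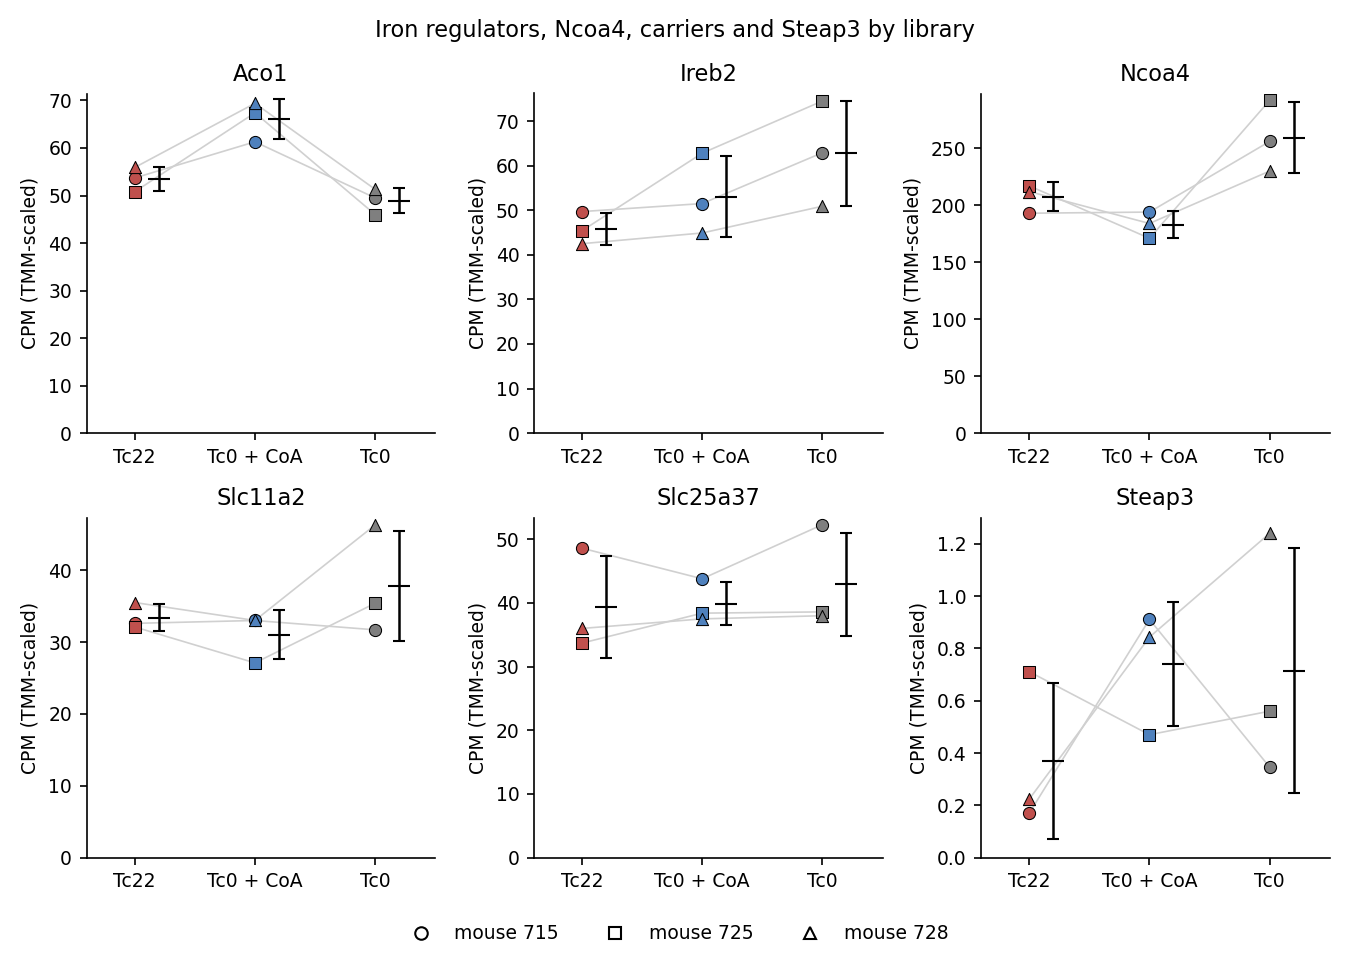
Levels of Ncoa4, Aco1, Ireb2, Slc25a37, Slc11a2 and Steap3 in CPM (y axes) by group, with points for mice, grey lines linking libraries of 1 mouse and bars for the mean ± SD. Aco1 is highest in the 3 CoA libraries, at 61.3 CPM or more, and Ncoa4 in the 3 Tc0 libraries, at 230 CPM or more.

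Counted together, 1 of the 9 genes tested (Fth1) was higher and 0 were lower in Tc22 against Tc0 cells. Of all genes tested, 3.68% passed that comparison, 2.48% higher and 1.21% lower. Leaving out the mouse 728 library of Tc0 cells gave 4 of 9 by adjusted p, against 17.0% of all genes. At an unadjusted edgeR p under 0.05 with all libraries, 4 of the 9 passed in Tc22 against Tc0 cells, against 21.2% of all genes. That cut gave 5 of 9 against 38.1% between Tc0 cells with CoA and Tc0 cells. It gave 4 of 9 against 43.3% between Tc22 cells and Tc0 cells with CoA, near the background. The counts that follow are by adjusted p. With CoA, 2 were higher (Tfrc, Aco1) and 2 lower (Fth1, Ncoa4) than in Tc0 cells, against 24.5% of all genes (12.5% higher, 12.0% lower). Between Tc22 cells and Tc0 cells with CoA, 2 were higher (Fth1, Ftl1) and 2 lower (Tfrc, Aco1), against 32.0% of all genes (16.0% higher, 16.0% lower). The median log2 differences of the 9 genes were -0.17, -0.24 and -0.03 in these 3 comparisons, against -0.01, -0.01 and 0.01 over all genes tested. The comparisons share libraries. Counts of 1 to 5 among 9 genes are few, and with CoA in either comparison the share of 44.4% by adjusted p stood beside backgrounds of 24.5% and 32.0%. The genes were chosen with earlier results of these data known, so these shares are no test of them as a set.

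**Figure D3:**
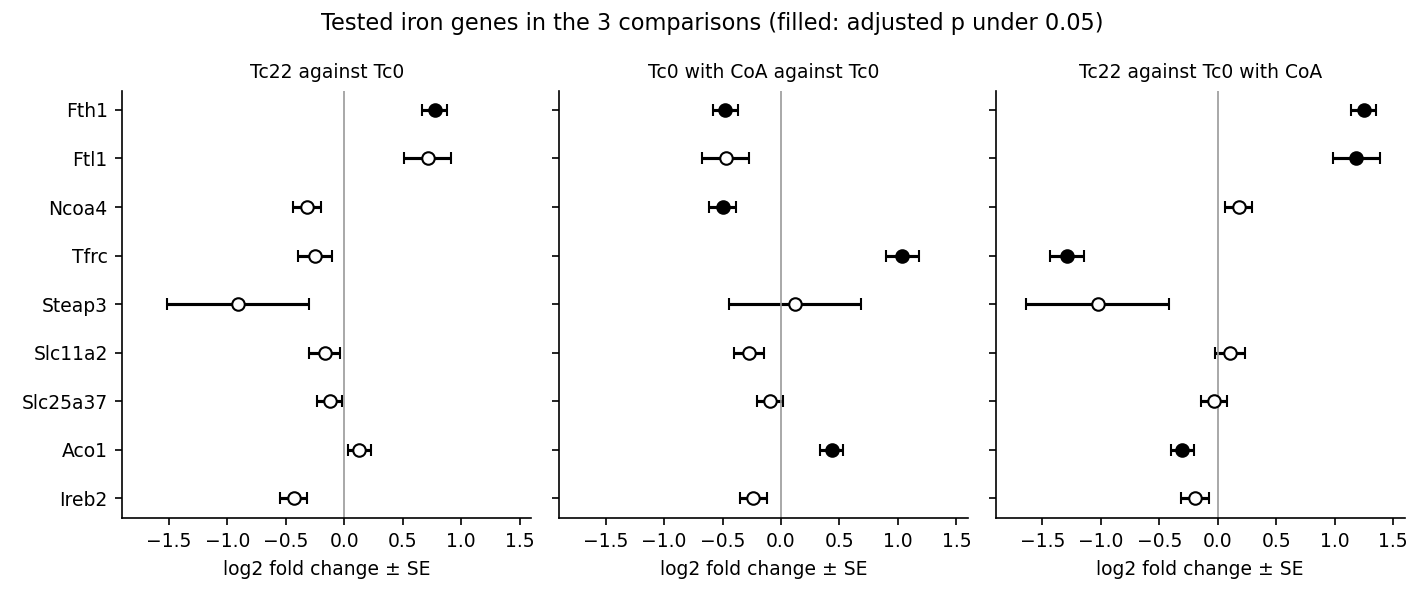
Log2 fold changes (x axis) of the 9 genes tested in Tc22 against Tc0 cells, Tc0 cells with CoA against Tc0 cells, and Tc22 cells against Tc0 cells with CoA; bars are standard errors and filled points have an adjusted p under 0.05. Fth1 and Tfrc move in opposite directions in both comparisons that hold CoA-treated cells.

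Storage was also set against uptake within each library. The ratio of summed ferritin mRNA (Fth1 plus Ftl1) to Tfrc mRNA, each per kilobase of exon, was 3.79, 4.25 and 6.79 in Tc22 cells, 0.758, 0.569 and 1.55 in Tc0 cells with CoA, and 1.58, 1.53 and 6.43 in Tc0 cells. Every Tc22 library lay above every CoA library. The mean log2 difference within mice was 2.45 ± 0.40 between these groups (SD, n = 3), a fold of 5.47, with each mouse between 2.13 and 2.90. It was -1.51 ± 0.50 between Tc0 cells with CoA and Tc0 cells, lower in all 3 mice. The CoA library of mouse 728 (1.55) still lay above the Tc0 library of mouse 725 (1.53). The mean difference was 0.94 ± 0.75 between Tc22 and Tc0 cells, where mouse 728 gave 0.08. The two-sided exact permutation test within mice gave p = 0.25 for each, the smallest that 3 mice allow. Most of the ferritin sum was Ftl1. Its group means were 419.5, 198 and 290.1 CPM per kilobase in Tc22 cells, Tc0 cells with CoA and Tc0 cells. Those of Fth1 were 106.2, 44.73 and 62.1, so the ratio mainly follows Ftl1 and Tfrc.

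The ratio of Fth1 to Ftl1 did not separate the groups. It was 0.289, 0.255 and 0.226 in Tc22 cells, 0.324, 0.266 and 0.159 in Tc0 cells with CoA, and 0.313, 0.391 and 0.118 in Tc0 cells. The level of this ratio depends on the length used. Per kilobase of the principal transcript it was higher, 0.199 to 0.656 over all libraries. Mean log2 differences within mice were 0.07 ± 0.79, -0.03 ± 0.50 and 0.09 ± 0.36 (SD, n = 3) in the 3 comparisons, each with an exact permutation p = 1. Each of these 3 changed sign when 1 mouse was left out. In every group mouse 728 had the lowest ratio.

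**Figure D4:**
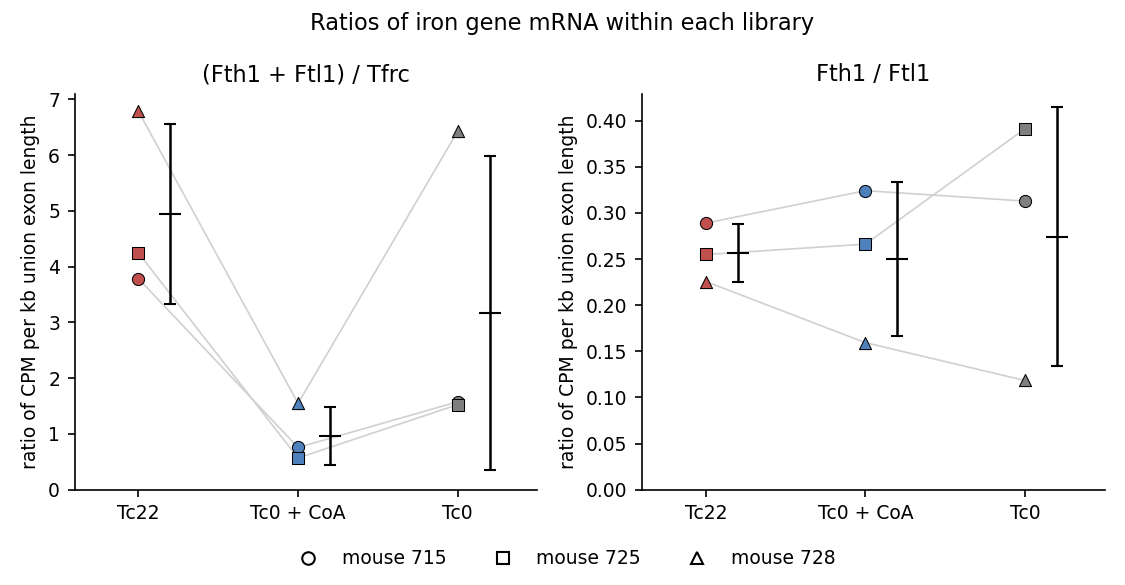
Ratio of summed ferritin mRNA to Tfrc mRNA and ratio of Fth1 to Ftl1 mRNA (y axes, per kilobase of exon) in each library by group, with grey lines linking libraries of 1 mouse and bars for the mean ± SD. The first ratio is 3.79 or more in Tc22 cells and at most 1.55 in Tc0 cells with CoA; the second overlaps in all groups.

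Markers of several cell types moved with CoA treatment. Of 9 CD8 T cell markers, 5 (Cd3e, Cd3d, Trac, Cd2 and Cd28) were lower in Tc0 cells with CoA than in Tc0 cells, against 12.0% of all genes. Cd8a (log2 difference -0.060), Cd8b1 (0.005), Lck (0.037) and Thy1 (0.253) did not pass. The same 5 were higher in Tc22 cells than in Tc0 cells with CoA, against 16.0% of all genes. Of 10 markers of macrophages, which handle much iron, 6 were tested. With CoA, 2 of them were higher than in Tc0 cells, against 12.5% of all genes: Lyz2 (log2 difference 1.15, adjusted p = 0.0117, edgeR) and Cd14 (2.24, adjusted p = 0.0134). In Tc22 cells against Tc0 cells with CoA, Lyz2 (-1.83), Cd14 (-2.58) and Csf1r (-1.60) were lower, against 16.0% of all genes. Cd68 (0.72) was higher there, also against 16.0%, and Itgam (-0.041) and Mrc1 (0.281) did not pass. Cd14 and Csf1r were low, at most 1.16 and 0.796 CPM in a library. The summed macrophage markers were 7.31 to 8.95 CPM in Tc22 cells, 5.88 to 16.2 in Tc0 cells with CoA and 5.26 to 8.37 in Tc0 cells, and Vsig4 was at 0 in all.

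Among other cell types, 4 single markers passed between Tc0 cells with CoA and Tc0 cells, where 24.5% of all genes passed. The lists of erythroid cells (1 tested), natural killer cells (3) and granulocytes and mast cells (1) had none. Ebf1 of B cells was higher (4.52, adjusted p = 0.00308, edgeR), 1 of 2 tested. It averaged only 0.134 CPM in Tc0 cells and 2.64 with CoA. The other B cell gene tested, Cd79b, stood at -0.387 (adjusted p = 0.135, edgeR). Zbtb46 of dendritic cells (1.06, adjusted p = 0.0139), 1 of 4, and Cd40lg of CD4 T cells (1.13, adjusted p = 0.0204), 1 of 5, were also higher. Trdc of gamma delta T cells was lower (-0.52, adjusted p = 0.042), 1 of 3. All 4 also passed between Tc22 cells and Tc0 cells with CoA, at -2.27, -0.95, -1.67 and 0.50. So did Klrb1c (1.57), Tcrg-C2 (-0.56) and Cpa3 (-2.56), where 32.0% of all genes passed. Between Tc22 and Tc0 cells, Cd4 alone passed (1.59, adjusted p = 0.0484), where 3.68% of all genes passed. Klrb1c, Cpa3 and Cd4 were low, at most 0.895, 1.41 and 1.37 CPM in a library. Summed B cell markers were 8.36 to 11.1 CPM in Tc22 cells, 10.7 to 11.7 in Tc0 cells with CoA and 9.1 to 11.8 in Tc0 cells. Summed dendritic cell markers were 4.36 to 5.85, 5.46 to 9.4 and 3.73 to 5 CPM in the same order, with Siglech and Cd209a at 0 in all. Summed gamma delta T cell markers were 130 to 158, 94.2 to 126 and 134 to 181 CPM in that order. Summed erythroid markers were at most 2.27 CPM. The part of any of these in the results on iron genes was not tested.

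The wider iron pathway was read from 7 lists of 93 genes, of which 78 were tested. In Tc22 against Tc0 cells 2 were higher and 1 was lower, or 3.85%, beside 3.68% of all genes. They were Slc39a14, an importer of iron not bound to transferrin (log2 difference 0.60, adjusted p = 0.0398, edgeR), Hfe, a partner of the transferrin receptor (1.88, adjusted p = 0.0292, at most 1.01 CPM in a library), and Cdc14a, a phosphatase (-0.58, adjusted p = 0.0415). Each of the 3 calls was lost without any of 6 single libraries: the 3 Tc22 libraries, the CoA library of mouse 728, and the Tc0 libraries of mice 715 and 725. Adjusted p then ran from 0.0524 to 0.251. They were also lost without a mouse term (0.13, 0.192 and 0.155). The hairpin search had a match in the 3′ UTR of Cdc14a, with 4 stem pairs.

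With CoA, 15 of the 78 were higher and 6 lower than in Tc0 cells, or 26.9%, beside 24.5% of all genes. The gene with the smallest p is given for each list. Slc39a14 was higher (0.66, adjusted p = 0.00907, edgeR; 0.0601 without the Tc0 library of mouse 725). Slc48a1, a haem transporter, was lower (-0.66, adjusted p = 0.00663; 0.0736 without a mouse term). Cisd3, a mitochondrial iron-sulphur protein, was higher (0.84, adjusted p = 0.00391), as was Ciapin1 of cytosolic cluster assembly (0.69, adjusted p = 0.00748), and both kept their calls in all alternatives run. Nbr1, an autophagy receptor, was lower (-0.45, adjusted p = 0.0131), a call lost without the CoA libraries of mice 725 (0.0879) and 728 (0.0825) or the Tc0 library of mouse 725 (0.0843). Pfn2, a profilin whose mRNA is known to hold an iron-responsive element, was lower (-0.69, adjusted p = 0.024). The hairpin search used here had no match in Pfn2. Its call was lost without the CoA library of mouse 715 (0.0941) or 728 (0.0994). It was also lost without the Tc0 library of mouse 715 (0.109) or 725 (0.0675), or without a mouse term (0.168). Tmprss6, a protease of the hepcidin pathway, was higher but at most 1.11 CPM in a library (2.0, adjusted p = 0.0154), a call lost without the CoA library of mouse 728 (0.117), the Tc0 libraries of mice 725 (0.0818) and 728 (0.0658), or with DESeq2 (0.0572).

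Between Tc22 cells and Tc0 cells with CoA, 14 of the 78 were higher and 15 lower, or 37.2%, beside 32.0% of all genes. Slc48a1 was higher (1.14, adjusted p = 0.000452, edgeR), at 59.7 ± 6.76 CPM in Tc22 cells and 27.3 ± 5.81 CPM in Tc0 cells with CoA (SD, n = 3 each). Pfn2 was higher (1.35, adjusted p = 0.00116), while Lyrm4, a partner of the mitochondrial cysteine desulphurase (-1.03, adjusted p = 0.00162), and Tmprss6 (-2.71, adjusted p = 0.00418) were lower. These 4 kept their calls in all alternatives run. Mms19, which helps insert cytosolic clusters, was higher (0.49, adjusted p = 0.00719), a call lost without the Tc22 library of mouse 725 (0.0627), the CoA library of mouse 728 (0.0511) or a mouse term (0.0708). Slc39a8, a metal importer, was higher (0.56, adjusted p = 0.0146; 0.0774 without the Tc22 library of mouse 725). Nbr1 was higher (0.40, adjusted p = 0.0157), a call lost without any Tc22 library (0.0555 to 0.0722) or the CoA libraries of mice 725 (0.0986) and 728 (0.0978).

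**Figure D5:**
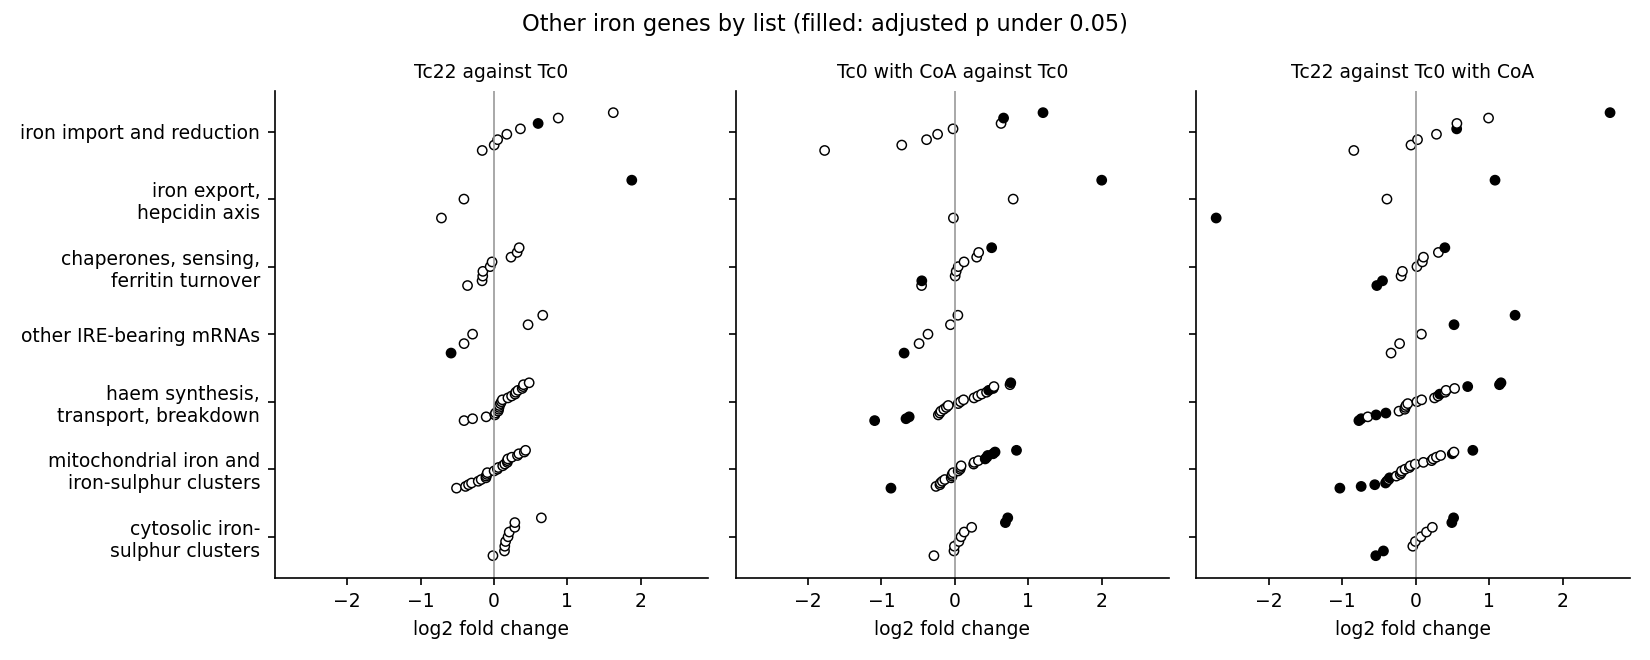
Log2 fold changes (x axis) of the tested genes of 7 lists of other iron genes (rows) in the 3 comparisons; filled points have an adjusted p under 0.05. Filled points are few between Tc22 and Tc0 cells, 3 of 78, and lie on both sides of 0 in the comparisons with CoA-treated cells, 21 and 29 of 78.

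Genes with the most similar pattern were found by Pearson's r of log2 CPM over the 9 libraries, among 9281 genes with a mean of at least 5 CPM. Predicted gene models, ferritin pseudogenes (Ftl1-ps1 among them) and immunoglobulin and T cell receptor segments were left out, though Trac was kept. The libraries share mice and groups, so r is a description. Closest to Fth1 were Acadl (0.977), Plekhb2 (0.976) and Armcx6 (0.975), and the lowest was Cemip2 (-0.991). Closest to Ftl1 were Pef1 (0.986), Trappc6a (0.986) and Serf2 (0.984), and the lowest was Phf20l1 (-0.984). Closest to Tfrc were Rars (0.998), Zdhhc6 (0.996) and Psmd1 (0.996), and the lowest was Trac (-0.986). Between the members themselves, r was 0.69 for Fth1 and Ftl1, -0.81 for Fth1 and Tfrc, and -0.83 for Ftl1 and Tfrc.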

How the data were processed

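The authors deposited whole-number gene counts of 9 libraries, as 1 table and as 9 single files with the same values. STAR 2.5.2, RSEM 1.3.0, GRCm38 and mm10 are named, with no role, in the submitters' processing notes. RSEM's estimates need not be whole, so the deposited counts may be rounded. The sources used here give neither the annotation release nor the strand setting. The 29 IDs without a GENCODE M21 match held 0.00477% of counts. Positions and lengths come from GENCODE M21.

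Counts were scaled by TMM and tested with edgeR 4.0.16 (R 4.3.3, quasi-likelihood F test, two-sided) after filterByExpr. Group and mouse were terms over all 9 libraries, with 4 residual degrees of freedom. Adjusted p is Benjamini-Hochberg over 15348 genes, with a threshold of 0.05. SE is the absolute log2 fold change over the square root of F. The p-values rest on 3 mice.

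The design text pairs the groups by mouse. Deviations from group means correlated at 0.0699 to 0.617 in 9 same-mouse pairs and at -0.527 to 0.228 in 18 different-mouse pairs. These ranges overlapped. Deviations from a mean of few libraries depend on each other, so the correlations are a description.

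Members, lists and markers were chosen with earlier results of these data known. All 10 members are named; of each other list, genes past the threshold with the smallest p (up to 4 per comparison by the rule, 1 shown here). Alternatives were other scalings, DESeq2 1.42.0, no filter, no mouse term, the compared groups alone, ferritin pseudogenes added, and each library left out. Principal transcript lengths were added after seeing the data.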

Additional observations from a re-analysis of the deposited data

How the results depend on the processing

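Called in all alternatives run were Fth1 in Tc22 against Tc0 cells (log2 difference 0.71 to 0.86) and against Tc0 cells with CoA (1.17 to 1.29), and Tfrc in Tc0 cells with CoA against Tc0 cells (0.90 to 1.23) and in Tc22 cells against Tc0 cells with CoA (-1.45 to -1.20). Of 411 recomputed values of single members, 375 kept direction and side of the threshold, 19 lost the call, 11 gained it and 6 changed sign. The 6 were all uncalled and came from leaving out 1 library: Slc25a37 ran from -0.154 to 0.013 and Steap3 from -0.496 to 0.84 in Tc0 cells with CoA against Tc0 cells, and Slc25a37 from -0.119 to 0.027 in Tc22 cells against Tc0 cells with CoA.

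Genes called in Tc22 against Tc0 cells numbered 565, but 953 with DESeq2, 1275 without the low-count filter, 120 without the replicate block for mouse, and 201 to 2669 with 1 library left out. Members called there numbered 1, but 3 with DESeq2 and 3 without the filter (Ftl1 and Ireb2 added), and 1 to 4 with 1 library left out. In Tc0 cells with CoA against Tc0 cells, 3763 genes fell to 1462 without the block and ran from 1160 to 4356 with 1 library left out, and the 4 members ran from 1 to 5. In Tc22 cells against Tc0 cells with CoA, 4913 genes fell to 2097 without the block and ran from 2185 to 5913, and the 4 members fell to 2 without the block (Ftl1 and Aco1 lost) and ran from 3 to 4. The block changed no other member's call. The causes were not tested.

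With 1 mouse left out, the log2 ratio of ferritin to Tfrc ran from 0.671 to 1.369, -1.739 to -1.241 and 2.226 to 2.61 in the 3 comparisons, and that of Fth1 to Ftl1 changed sign in each (-0.366 to 0.408, -0.252 to 0.24 and -0.114 to 0.22). Depth limits Steap3 and Slc40a1.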
